A study of Mus musculus with 116 samples.

Results

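Mitochondrial ribosomal protein genes encode, in the nucleus, the proteins of the ribosome that works inside mitochondria. They were taken as all gene symbols of the count files that begin with Mrpl or Mrps followed by a number, leaving out symbols with -ps. This gave 78 members of 40202 gene symbols, and no symbol with -ps was present. By the uniform naming of ribosomal proteins, 30 members are large-subunit proteins with a bacterial homologue and 21 are large-subunit proteins classed as mitochondria-specific. Another 16 are small-subunit proteins with a bacterial homologue and 10 are small-subunit proteins classed as mitochondria-specific. The last, Mrps36, carries a ribosomal name but is a subunit of the oxoglutarate dehydrogenase complex. Mrps18a and Mrps30 were counted with the large subunit, where they sit despite their names. The classes follow the naming: Mrps18a and Mrps18b are classed as mitochondria-specific, although Mrps18c, which shares their name, is classed with bacterial homologues.

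The mitochondrial ribosome translates only the few messages of the mitochondrial genome, which code for core subunits of the respiratory chain and of ATP synthase. Its protein genes are spread over the nuclear chromosomes, are translated in the cytosol, and their products are imported and assembled on ribosomal RNA made inside the organelle. Compared with its bacterial relatives, this ribosome is rich in protein, so many of its subunits have no bacterial counterpart. Because its messages are moderately abundant, they can be missed in a library made from a single cell.

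RNA was measured in untreated cultures of 2 mouse cell lines: C10, a line derived from alveolar type II epithelial cells of the lung, and SVEC, an endothelial line. The lysate of each sample was held in a nanodroplet that was split between RNA sequencing and protein measurement, a method called nanoSPLITS, and only the RNA side was analysed here. In the input series, 8 libraries were each made from 1 C10 cell, 6 from 3 C10 cells and 6 from 10 C10 cells. A second set was of single cells only, 48 of each line. The labels do not say whether libraries of a group came from separate cultures, so p-values measure the spread between these libraries only. C10 and SVEC libraries showed few of the markers that define the labelled cell types. Of 8 alveolar type II markers, 5 were at 0 in every C10 single cell: 4 surfactant genes (Sftpc is one) and Nkx2-1. The summed level of all 8 ran from 0 to 128.6 CPM (reads of a gene scaled to a common library total), with a median of 0. Among 4 epithelial markers, 1 was at 0 in every C10 single cell and 3 in every SVEC cell. Their summed level ran from 0 to 216.1 CPM in C10 with a median of 0.317, and from 0 to 1.44 CPM in SVEC with a median of 0. Of 10 endothelial markers, 5 were at 0 in every SVEC cell, Kdr and Vwf among them, and the summed level ran from 0 to 138.4 CPM with a median of 0. The groups are therefore named here by line. The summed level of 6 fibroblast markers had a median of 2222 CPM in C10 and 869 CPM in SVEC single cells (ranges 475.6 to 14200 and 0 to 9852), and its part in the results was not tested. In each line 2 of these 6 markers were at 0 in every single cell. Only 2 of the 6 had reads in at least 50% of the cells of a line.

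Depth and quality differed between libraries. Totals ran from 430798 to 15385625 counts for 1 cell, from 6889508 to 14018116 for 3 cells and from 8313314 to 14778988 for 10 cells. They ran from 83188 to 5911755 counts in the 46 C10 single cells used (another 2 had under 1000 counts and were not used), and from 5122 to 2831907 in the 48 SVEC cells. Replicate 1 of the 1-cell libraries stood apart, with 538 genes detected, 95.1% of its reads unaligned and reads on only Mrpl41 and Mrpl45 among the members. The share of reads left unaligned was 41.7% ± 24.0 (SD, n = 8) for 1 cell and 19.0% ± 3.60 (SD, n = 6) for 10 cells. It was 29.2% ± 6.75 (SD, n = 46) in C10 single cells and 40.2% ± 16.2 (SD, n = 48) in SVEC cells, and its part in the results was not tested.

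The promoters of 4 members are shown because the results turn on these genes. Mrps26, Mrpl36 and Mrps30 were called in C10 against SVEC both by level and by detection, and Mrps9 was the one member called in the input series. Each line gives the 250 bases before the annotated start, read 5′ to 3′ on the gene's strand, from RefSeq on GRCm38.p6, a build that the count files do not name. Capitals mark a match to one of 3 motifs, searched on both strands: GCGCANGCG (nuclear respiratory factor 1), CCGGAAG (ETS family factors, GABP among them) and AAGATGGCG (YY1).
Mrps26, chr2:130563507-130563756, plus strand: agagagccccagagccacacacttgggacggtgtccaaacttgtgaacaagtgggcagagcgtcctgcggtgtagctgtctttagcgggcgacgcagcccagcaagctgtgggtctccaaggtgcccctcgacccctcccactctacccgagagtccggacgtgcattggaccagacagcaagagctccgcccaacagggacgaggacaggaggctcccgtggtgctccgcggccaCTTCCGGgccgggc
Mrpl36, chr13:73330759-73331008, plus strand: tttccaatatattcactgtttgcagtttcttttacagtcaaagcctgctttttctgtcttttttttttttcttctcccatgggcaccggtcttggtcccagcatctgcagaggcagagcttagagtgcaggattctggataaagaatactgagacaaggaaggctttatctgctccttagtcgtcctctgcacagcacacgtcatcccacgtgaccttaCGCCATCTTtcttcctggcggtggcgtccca
Mrps30, chr13:118387253-118387502, minus strand: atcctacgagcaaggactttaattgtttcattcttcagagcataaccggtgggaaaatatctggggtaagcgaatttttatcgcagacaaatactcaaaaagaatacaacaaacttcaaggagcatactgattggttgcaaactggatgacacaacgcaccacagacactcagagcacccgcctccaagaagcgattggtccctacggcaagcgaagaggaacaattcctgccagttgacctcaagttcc
Mrps9, chr1:42850983-42851232, plus strand: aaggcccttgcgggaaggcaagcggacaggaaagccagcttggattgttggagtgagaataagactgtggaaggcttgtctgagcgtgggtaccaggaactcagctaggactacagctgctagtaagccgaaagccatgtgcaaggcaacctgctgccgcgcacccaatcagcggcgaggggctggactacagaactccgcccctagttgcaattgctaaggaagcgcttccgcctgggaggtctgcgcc

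Mrps26 held CCGGAAG and Mrpl36 held AAGATGGCG, each on the reverse strand and close to the start, and the other pair held no match in the bases shown. A promoter window of 250 bases before and 50 bases after the start was found for 69 members, with 75 windows in all. In these longer windows Mrps9 held 1 match to GCGCANGCG and Mrps26 held 2, which reach beyond the bases shown. GCGCANGCG was present in 16 of these 75 windows (21.3%), against 6.25% of all 32851 promoter windows. CCGGAAG was present in 26 windows (34.7%), against 8.86% of all promoters. AAGATGGCG was present in 8 windows (10.7%), against 1.40% of all promoters. At least 1 of the 3 motifs was found in 42 member windows (56.0%), against 14.8% of all promoters. AAGATGGCG shares end letters with both other motifs, so that matches can overlap, and a match describes sequence only.

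Libraries made from more cells held reads of more members, where a member with at least 1 read is called detected. This count over the members was not tested. Libraries of 1 cell detected 2, 41, 46, 51, 62, 63, 72 and 75 of the 78 members, a mean of 51.5 ± 23.3 (SD, n = 8). Without replicate 1, which detected 2, the mean was 58.6 ± 12.9 (SD, n = 7). Libraries of 3 cells detected between 71 and 76 members, a mean of 74.5 ± 1.97 (SD, n = 6). Libraries of 10 cells detected 77 members in 5 libraries and 75 in the other, a mean of 76.7 ± 0.816 (SD, n = 6). The 1-cell libraries thus overlapped those of 3 cells at their upper end, with 2 of 8 libraries at 72 or more. After every library was thinned at random to 400000 counts, the means were 49.1 ± 23.4 (n = 8), 73.3 ± 2.34 (n = 6) and 75.5 ± 1.87 (n = 6, all SD), in the same order.

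**Figure D1:**
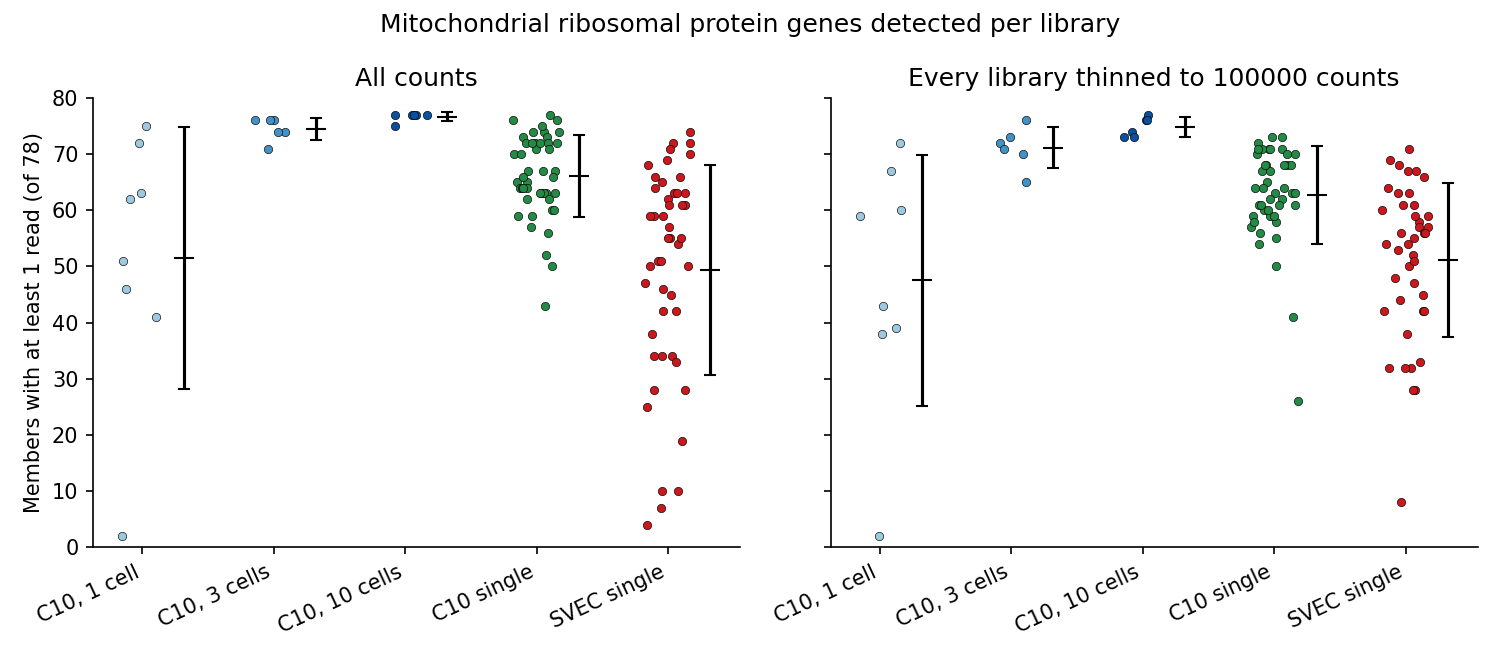
Members with at least 1 read per library, of 78, with all counts (left) and after thinning to 100000 counts (right), where libraries with fewer counts are left out. Each point is a library, and the bar gives mean ± SD. Libraries of 10 cells sit at 75 or 77 with all counts, and those of 1 cell range from 2 to 75.

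Missing members in 1-cell libraries were not only faint ones. At the mean level in 10 cells and the depth of each library, 544 of the 624 member values of the 1-cell libraries would have had at least 100 reads, and 139 of these (25.6%) were 0. In 3 cells the share was 3.29% of 456 such values, and in 10 cells 0.438% of 457. Pooled over all member values above 0, the median level was 131.8 CPM in 1 cell, 120.2 in 3 cells and 119.4 in 10 cells. Different members were above 0 in each group, so these medians do not compare a member with itself. The coefficient of variation (SD over mean) between libraries had a median over the members of 1.11 in 1 cell, 0.451 in 3 cells and 0.356 in 10 cells. Levels of a member thus spread more widely between 1-cell libraries than between pools.

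Mrpl45, which lies at the exit of the peptide tunnel and helps hold the ribosome at the inner membrane, was the one member with a read in all 8 libraries of 1 cell. This rests on replicate 1, which stood apart and where Mrpl45 had 2 reads. Without that replicate, 23 members were detected in all 7 libraries of 1 cell. In 3 cells 67 members were detected in every library, and in 10 cells 75. The members missing somewhere in 10 cells were Mrpl47 and Mrps30, each absent from 1 of 6 libraries, and Mrpl33. Mrpl33, a small large-subunit protein with a bacterial homologue, was listed at 0 in all 114 libraries used. A count of 0 allows up to 3 counts over all libraries, or 0.00877 CPM, for counting error only. Its exons overlap those of Gm43809 in the GENCODE annotation, a symbol that is not in the count files, and the cause of the zeros was not tested. The other 77 members entered every test.

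**Figure D2:**
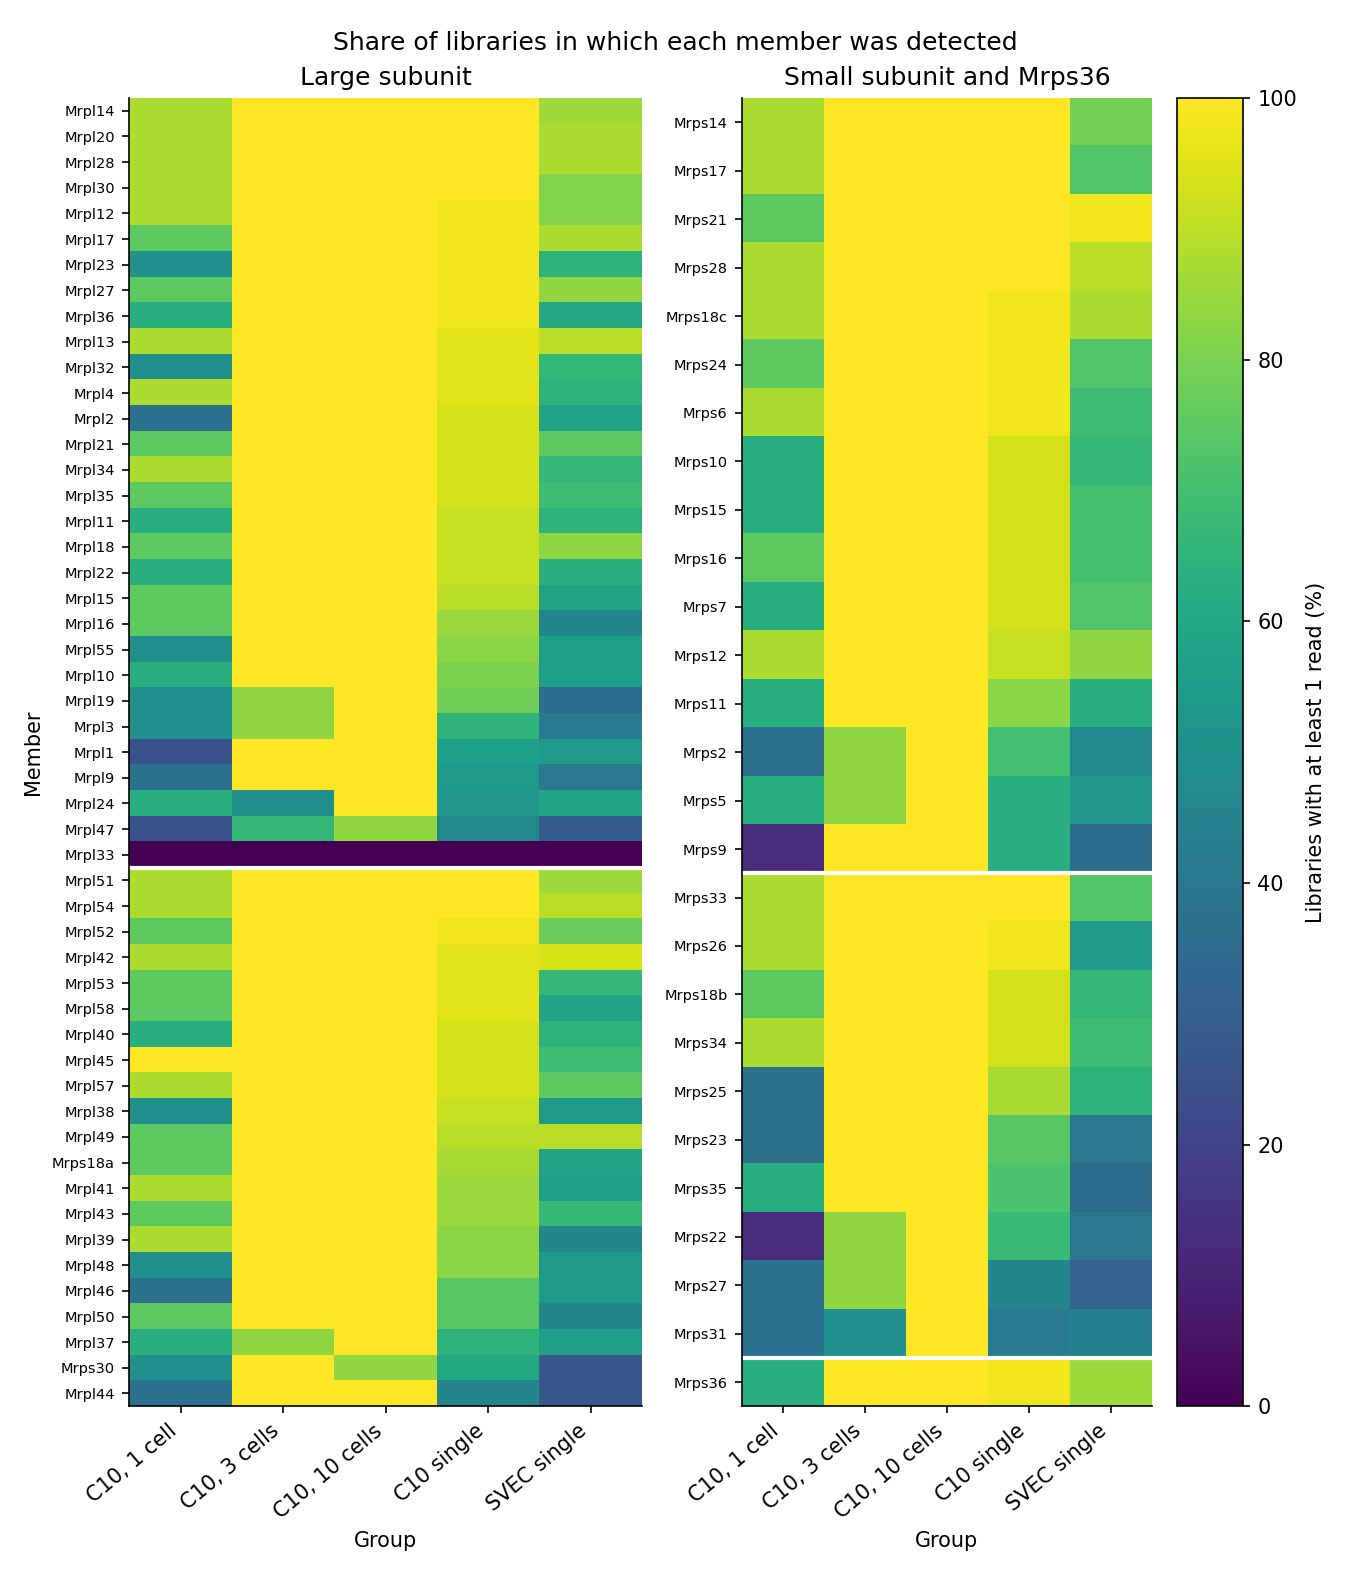
Percent of libraries with at least 1 read for each member (rows) in each group (columns), with all counts. White lines separate proteins with a bacterial homologue (above) from mitochondria-specific ones (below), and Mrps36 at the foot. Mrps9 and Mrps22 were detected in 12.5% of 1-cell libraries and in 100% of 10-cell libraries, and Mrpl33 in none.

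Mrps9, Mrps22 and Mrpl1 had the largest gains in detection between 1 cell and 10 cells. Next came 9 members tied at 62.5 percentage points (3 of 8 libraries to 6 of 6), of which Mrpl2 and Mrpl44 are described here. Mrps9, a homologue of a bacterial protein in the head of the small subunit, had 3 reads in replicate 9 of the 1-cell libraries (0.359 CPM) and 0 in the other 7. It stood at 1.89, 77.6, 68.3, 138, 25.0 and 56.9 CPM in 3 cells and at 22.6, 46.1, 89.1, 57.4, 35.2 and 51.3 CPM in 10 cells. Neither pool overlapped the 1-cell libraries. Pooled over libraries, its level in 10 cells was 1370 times that in 1 cell, with an exact 95% interval for counting error of 468 to 6645 that rests on 3 reads. In edgeR's quasi-likelihood test it was the member that rose, by a log2 fold change of 9.55 ± 1.80 (SE) in 10 cells (adjusted p = 0.0230) and 9.95 ± 1.82 in 3 cells (adjusted p = 0.0170). These fitted folds depend on the small count added to zeros and are no bounds. In the separate C10 single cells, 29 of 46 libraries had reads of Mrps9, with a median of 14.5 CPM and a highest of 336, so the near absence in the 1-cell libraries did not recur there.

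Mrps22, a mitochondria-specific small-subunit protein, had 84.0 CPM in replicate 2 of the 1-cell libraries and 0 in the other 7. It had 0 in replicate 5 of the 3-cell libraries and 24.2 to 120 CPM in the other 5, and 18.3 to 95.4 CPM in 10 cells. Because of that single library, the 1-cell range overlapped both pools. Its log2 fold change in 10 cells was 1.63 ± 1.90 (SE, edgeR adjusted p = 0.913). Without 1-cell replicate 2 it was called in 10 cells and in 3 cells, which made 2 members called in each comparison. Leaving out that library leaves only zeros for Mrps22 in 1 cell, so this call is no separate support.

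Mrpl1, part of the flexible stalk by which transfer RNA leaves the large subunit, was read in 2 libraries of 1 cell, at 213 and 8.03 CPM. Its level in 10 cells ran from 12.5 to 84.4 CPM, within the 1-cell range. Mrpl2, a core protein near the peptidyl transferase centre, was read in 3 libraries of 1 cell at 93.3, 94.0 and 175 CPM, and ran from 64.0 to 178 CPM in 10 cells. Where it was detected in 1 cell, Mrpl2 was thus at the level of the pools. Mrpl44, a large-subunit protein with a fold related to double-stranded RNA nucleases, was read in 3 libraries of 1 cell at 6.66, 19.7 and 50.8 CPM. In 10 cells it was 0.120 CPM in replicate 1 and 18.1 to 55.5 CPM in the other 5. None of these 3 members was called by edgeR.

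**Figure D3:**
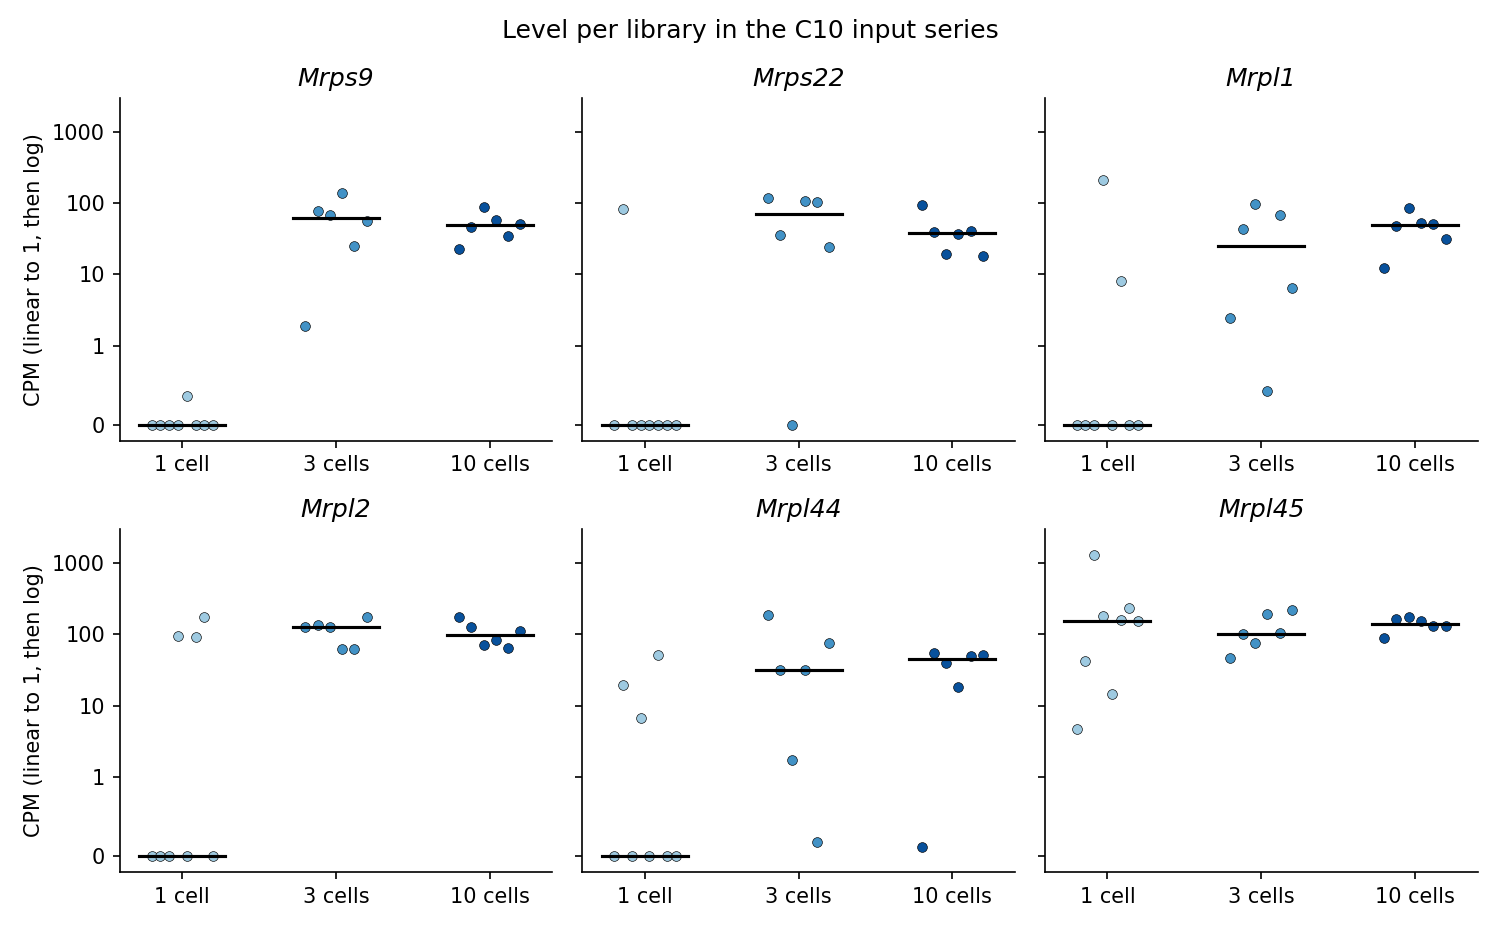
CPM in each library of the C10 input series for Mrpl45, the 3 members with the largest gain in detection, and Mrpl2 and Mrpl44 from the 9 tied next. The vertical axis is linear to 1 and logarithmic above, points are libraries, and bars are medians. Zeros are frequent in 1 cell for all but Mrpl45, whereas in 10 cells every library has reads of all 6.

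Across the tested genes, 10.7% were called by edgeR in 10 cells against 1 cell, and among the members 1 of 77 was called, Mrps9. In 3 cells against 1 cell 6.35% of genes were called, and again Mrps9 was the 1 member. In 10 cells against 3 cells 0% of genes were called, and edgeR called 0 of 77 members, with 0 members under an unadjusted p of 0.05. DESeq2 and limma also called 0 members there, and 1.86% and 0.257% of all genes. Without replicate 1 of the 1-cell libraries Mrps9 was again the one member called in both comparisons, while the share of all genes called went to 2.46% in 10 cells and 0.235% in 3 cells. With the share of genes detected as a covariate, edgeR called 0 genes and 0 members, and Mrps9 had an adjusted p of 0.302 in 10 cells and 0.0864 in 3 cells.

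The direction of the family between 1 cell and 10 cells depended on the scaling. The median log2 fold change of the 77 members was -0.0017 with TMM factors, 0.30 with library totals and -0.96 with DESeq2's size factors, while the median over all genes was 0.36, 0.59 and -0.50. Relative to all genes, the members' median therefore lay lower by -0.36, -0.29 and -0.46 under the 3 scalings. On the scale of limma, log2(CPM + 1), where zeros weigh heavily, the members' median was 2.28 against 1.45 over all genes. That test called 9 members higher in 10 cells, where 10.4% of all genes were called. They were Mrps9, Mrps22, Mrps23 and Mrps25 of the small subunit and Mrpl1, Mrpl2, Mrpl9, Mrpl23 and Mrpl46 of the large subunit.

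Detection itself was tested with a two-sided Fisher exact test per gene after thinning to 400000 counts. In 10 cells against 1 cell the test called 0% of genes and 0 of 77 members after adjustment. Under an unadjusted p of 0.05 were 13 of 77 members and 2464 of 15172 genes, which are similar shares. All 13 were detected more often in 10 cells. Leaving out 1 library at a time gave 4 to 14 members under that p, and 4 without 1-cell replicate 1, 5 or 9 or without any 10-cell library but replicate 10. The lowest p, 0.000333 for Mrps9 (6 of 6 libraries against 0 of 8, adjusted p = 0.0549), is the smallest that this design allows. In 3 cells against 1 cell 0% of genes and 0 members were called, with 8 members and 765 of 14212 genes under an unadjusted p of 0.05. Leaving out 1 library at a time gave 2 to 9 members under that p. In 10 cells against 3 cells 0% of genes and 0 members were called, with 0 members under an unadjusted p of 0.05.

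Small-subunit proteins specific to mitochondria were the class seen least often in 1 cell. They were detected in 56.3% of their gene and library pairs, against 69.5% for small-subunit proteins with a bacterial homologue. Large-subunit proteins stood at 71.4% for the mitochondria-specific class and 63.8% for those with a bacterial homologue, which hold Mrpl33. In 10 cells these shares were 100%, 100%, 99.2% and 96.1% in the same order. For comparison, 86 cytosolic ribosomal protein genes were detected in 83.3% of pairs in 1 cell and 94.2% in 10 cells. For 92 nuclear-encoded genes of oxidative phosphorylation the shares were 76.0% and 87.7%. In 10 cells 5 genes of the first list and 11 of the second had a read in no library, against 1 member. This caps the shares of these lists in 10 cells. Without replicate 1, the shares in 1 cell were 93.7% and 85.4% for these lists and 75.1% for the members, which had 98.3% in 10 cells.

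Levels of different members can be compared only per length, here as CPM per kilobase of coding sequence in C10 single cells. The highest were Mrps14 at 1724, Mrps21 at 1107 and Mrps17 at 1014 CPM per kilobase, all small-subunit proteins with bacterial homologues. The lowest detected were Mrps30 at 18.3 and Mrps18a at 8.14 CPM per kilobase, the pair of large-subunit proteins with small-subunit names. Mrps18b and Mrps18c, small-subunit proteins that share the Mrps18 name, stood at 141 and 650 CPM per kilobase. The order across the members was alike in C10 and SVEC single cells, with a Spearman correlation of 0.924 across 78 members that share libraries, kit and gene lengths. Divided by the union of all annotated exons in place of the coding length, Mrps21 was first, Mrps14 the seventh and Mrps17 at rank 33, so ranks near the top rest on the length used.

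C10 single cells were next compared with SVEC single cells. By edgeR 10 of 77 members were called, 9 higher in C10 and 1 higher in SVEC, when 18.9% of all genes tested were called, 14.4% higher in C10 and 4.48% higher in SVEC. The share of members called, 9 higher and 1 lower of 77, is to be read against that background. On simulated single cells edgeR made more false calls than its threshold allows and limma made few. All 10 members called here were also called by limma, which called 34.6% of all genes. The simulated lines differed only in depth and in genes changed on purpose, so this overlap is no check on the 10 calls. With library totals in place of TMM factors the split was 3 higher and 3 lower, when 17.1% of all genes were called, 9.89% higher and 7.2% lower. The median log2 fold change over all genes tested was 0.35 with TMM factors, -0.0023 with library totals and 0.53 with DESeq2's size factors. The members' median lay above it by 0.21, 0.15 and 0.18. Fold changes below are those with TMM factors.

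Among mitochondria-specific proteins of the small subunit, Mrps33 and Mrps26 were higher in C10. Mrps33 ran from 0.880 to 578 CPM in C10 with a median of 262, and from 0 to 495 CPM in SVEC with a median of 95.8. The ranges overlapped, and the log2 fold change was 1.54 ± 0.38 (SE, edgeR adjusted p = 0.000995). Mrps26 ran from 0 to 265 CPM in C10 with a median of 71.0, and from 0 to 119 CPM in SVEC with a median of 3.35. Its log2 fold change was 1.97 ± 0.53 (edgeR adjusted p = 0.00300). The highest SVEC cells reached only into the middle of the C10 range.

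Small-subunit proteins with bacterial homologues contributed Mrps24, Mrps17 and Mrps14. Mrps24 showed median levels of 21.3 CPM (C10) and 7.72 CPM (SVEC), with highest values of 168 and 455 CPM, and a log2 fold change of 1.62 ± 0.49 (SE, edgeR adjusted p = 0.0101). The SVEC maximum exceeded every C10 cell, although most SVEC cells were low. Mrps17 had medians of 336 and 141 CPM and a log2 fold change of 1.19 ± 0.38 (edgeR adjusted p = 0.0155). Mrps14, the member with the highest level per length in C10, had medians of 649 and 348 CPM and a log2 fold change of 0.97 ± 0.36 (edgeR adjusted p = 0.0429). Both overlapped widely between the lines.

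In the large subunit Mrps30, Mrpl36, Mrpl12 and Mrpl15 were higher in C10. Mrps30, a mitochondria-specific protein, had the largest fold change of any member called, 2.86 ± 0.75 on the log2 scale (SE, edgeR adjusted p = 0.00234). Its level was low, with a median of 4.62 CPM and a highest value of 156 in C10, and a median of 0 and a highest value of 76.1 CPM in SVEC. Mrpl36, a very short zinc-binding protein with a bacterial homologue, had medians of 246 CPM in C10 and 66.8 CPM in SVEC. Its log2 fold change was 1.497 ± 0.46 (edgeR adjusted p = 0.0119). Mrpl12, the stalk protein that recruits translation factors and that also binds the mitochondrial RNA polymerase, had medians of 253 and 101 CPM. Its log2 fold change was 1.19 ± 0.37 (edgeR adjusted p = 0.0122). Mrpl15, homologous to a bacterial core protein, had medians of 176 and 38.3 CPM and a log2 fold change of 1.61 ± 0.53 (edgeR adjusted p = 0.0211).

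Mrpl49, a mitochondria-specific protein of the large subunit, was the 1 member lower in C10. It ran from 0 to 410 CPM in C10 with a median of 97.5, and from 0 to 1205 CPM in SVEC with a median of 321. The log2 fold change was -1.18 ± 0.42 (SE, edgeR adjusted p = 0.0366). In cells with at least 100000 counts the adjusted p was 0.0548. Of the 10 members called, the exons of Mrpl36, Mrps24, Mrps26 and Mrpl49 overlap in part those of Ndufs6, Urgcp, 4930473A02Rik and Syvn1. The strand setting of the counting is not given in the sources used here, so reads of overlapping genes cannot be told apart, and 6 of the 10 calls have no exon overlap with a gene named in the files. Of these 6, Mrps30 and Mrpl12 overlap B430218F22Rik and Gm16755, symbols not in the files, which leaves 4 calls with no annotated overlap.

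**Figure D4:**
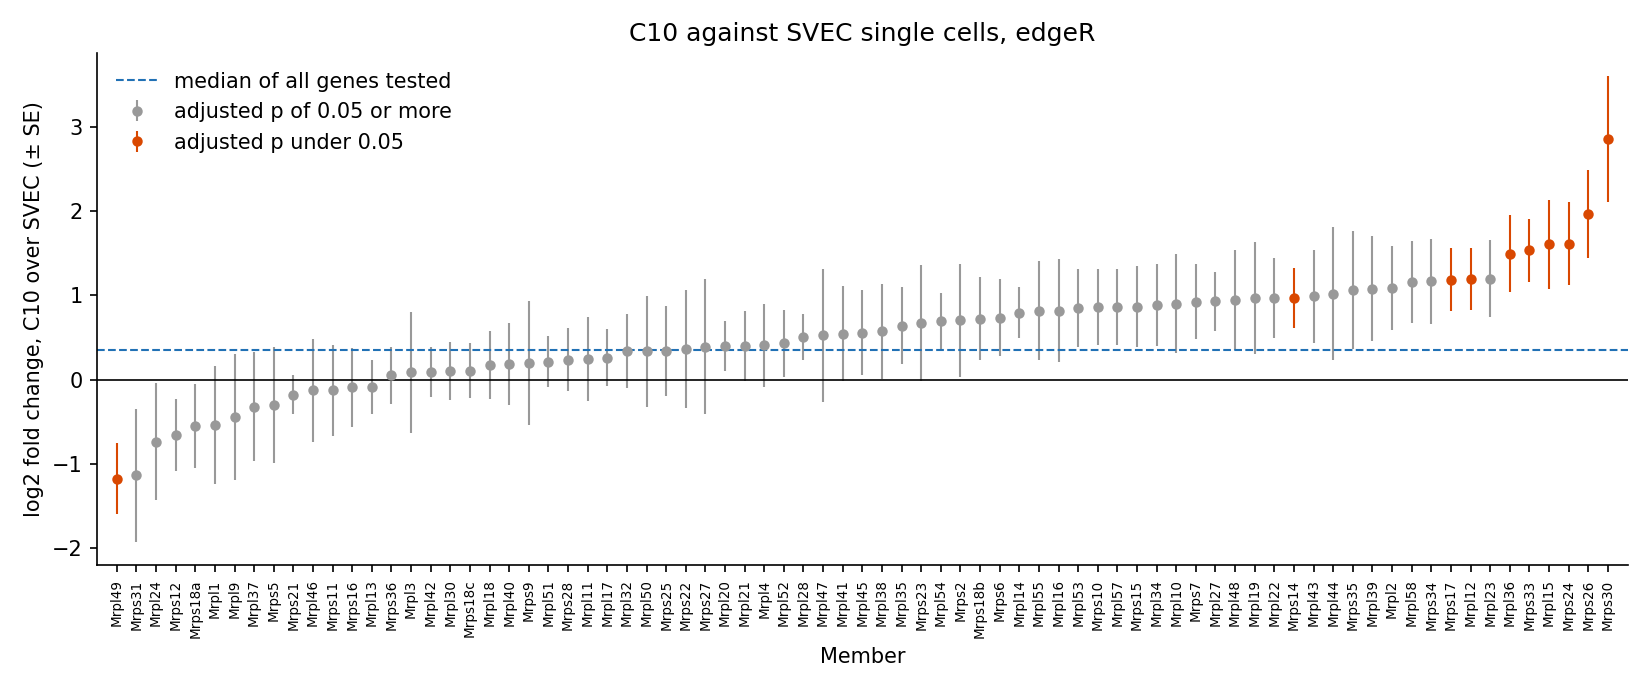
Fitted log2 fold change of C10 over SVEC single cells (± SE, edgeR) for the 77 members tested, in order of size. Orange points passed an adjusted p of 0.05, and the dashed line is the median of all genes tested, 0.35. Mrps30 is at 2.86 and Mrpl49 at -1.18.

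Other members chosen for their roles did not pass edgeR's test. Mrpl58, a peptidyl-tRNA hydrolase built into the large subunit, showed median levels of 161 CPM (C10) and 45.4 CPM (SVEC) and a log2 fold change of 1.16 ± 0.49 (SE, edgeR adjusted p = 0.0870). Mrps34, a mitochondria-specific small-subunit protein, had 1.17 ± 0.51 (edgeR adjusted p = 0.0977). Mrpl44, Mrpl45 and Mrpl32, the last a protein that is cleaved by an inner-membrane protease before it joins the large subunit, had log2 fold changes of 1.02, 0.56 and 0.34. Mrps12, which lies at the decoding centre, had -0.66 ± 0.43 (edgeR adjusted p = 0.312), with median levels of 59.7 CPM (C10) and 139 CPM (SVEC). With library totals, Mrps12 and Mrps21 were called lower in C10, at log2 fold changes of -1.13 and -0.74. Mrps36 of the oxoglutarate dehydrogenase complex had 0.05 ± 0.34. The log2 fold changes of the 3 genes named Mrps18 were -0.55 for Mrps18a (0.47 in limma), 0.72 for Mrps18b and 0.11 for Mrps18c. limma called Mrpl58, Mrps34, Mrpl32 and Mrps18b higher in C10.

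The number of members called depended on the tool. limma on log2(CPM + 1) called 38 members higher and 1 lower in C10, when it called 34.6% of all genes. DESeq2 called 20 higher and 1 lower, when it called 18.2% of all genes, 15% higher and 3.12% lower. Both lists held all 10 members that edgeR called, and the 1 lower was Mrpl49 in each. With the share of genes detected as a covariate, edgeR called Mrps24 and Mrps30 only, both higher in C10, when it called 8.17% of all genes higher and 6.86% lower. SVEC cells had fewer genes detected per library, 4197 ± 1817 (SD, n = 48) against 6347 ± 1298 (SD, n = 46) in C10.

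Detection between the lines was compared in cells thinned to 100000 counts, 45 C10 and 42 SVEC libraries. C10 cells detected 62.7 ± 8.65 members (SD, n = 45) and SVEC cells 51.1 ± 13.7 (SD, n = 42), and without thinning 66.1 ± 7.33 (SD, n = 46) and 49.4 ± 18.7 (SD, n = 48). By Fisher exact test 10 of 77 members were called, each detected more often in C10, when 6.86% of all genes tested were called more often in C10. Mrps26 was read in 41 of 45 C10 cells and 20 of 42 SVEC cells (adjusted p = 0.000726, Fisher exact test). Mrpl36 was read in 44 and 28 cells (adjusted p = 0.00355, exact) and Mrps30 in 20 and 6 cells (adjusted p = 0.0348, exact). These 3 had also been called by level.

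The other 7 were called by detection and not by edgeR on the levels. Mrpl53, a mitochondria-specific large-subunit protein, was read in 43 of 45 C10 and 27 of 42 SVEC cells (adjusted p = 0.00722, Fisher exact test). Mrpl19, homologous to a bacterial protein at the subunit interface, was read in 34 and 16 cells (adjusted p = 0.0116, exact), and Mrpl58 in 42 and 27 cells (adjusted p = 0.0204, exact). Mrpl2, Mrpl23, Mrpl16 and Mrpl39 were read in 41, 42, 37 and 36 C10 cells, against 26, 28, 21 and 21 SVEC cells. Their adjusted p ran from 0.0287 to 0.0469 in the exact test. Mrpl23 is a homologue of a bacterial protein beside the tunnel exit, and Mrpl39 is specific to mitochondria.

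Detection within one line spanned the same breadth. Reads of 11 members were present in all 46 C10 single cells, the 5 first by symbol being Mrpl14, Mrpl20, Mrpl28, Mrpl30 and Mrpl51, and in SVEC 0 members were present in all 48. Mrpl28 ran from 104 to 857 CPM in C10 with a median of 441, and Mrpl51 from 92.1 to 770 CPM with a median of 301. The 5 seen in the fewest C10 cells were Mrpl33 in 0, Mrps31 in 19, Mrpl44 and Mrps27 in 21 each and Mrpl47 in 22. Mrps27, a protein with repeats that bind RNA, had a median of 0 and a highest value of 180 CPM in C10. The coefficient of variation between cells had a median over the members of 0.753 in C10 and 1.26 in SVEC. Median totals were 1881700 counts in C10 and 434945 in SVEC, and the part of depth in this spread was not tested.

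Genes that act with the mitochondrial ribosome were read from fixed lists. Of 5 ribosomal proteins with other names, 0 of 5 were called by edgeR in C10 against SVEC. limma called Gadd45gip1, a large-subunit protein, higher in C10. Dap3, a GTP-binding small-subunit protein, showed median levels of 62.3 CPM (C10) and 173 CPM (SVEC) and a log2 fold change of -0.99 ± 0.61 (SE, edgeR adjusted p = 0.291). Of 21 tested factors of ribosome assembly and ribosomal RNA modification, 5 were higher in C10 by edgeR, when 14.4% of all genes tested were. They were Rcc1l, Mettl15, Malsu1, Rpusd3 and Mrm1. Rcc1l, a factor of ribosome assembly, was read in 28 of 46 C10 and 7 of 48 SVEC cells, with a log2 fold change of 3.39 ± 0.76 (edgeR adjusted p = 0.000303).

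Of 13 tested mitochondrial translation factors 1 was called, when 14.4% of all genes tested were higher in C10 and 4.48% lower. It was Lrpprc, which stabilises mitochondrial messages, higher in C10 by 2.86 ± 0.82 on the log2 scale (SE, edgeR adjusted p = 0.00628). Cytosolic ribosomal proteins are given for comparison. Of 81 cytosolic ones tested 73 were higher in C10 and 0 lower by edgeR, with a median log2 fold change of 1.10 against 0.56 for the members, and the difference between the lists was not tested. Of 81 tested nuclear-encoded genes of oxidative phosphorylation 19 were higher and 0 lower, with a median of 0.38. With library totals these counts were 51 higher and 1 lower for the cytosolic list, and 3 higher and 6 lower with a median of -0.04 for oxidative phosphorylation, so the direction of the latter turned with the scaling. Over all genes tested, library totals gave 9.89% higher and 7.2% lower.

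In 10 cells against 1 cell, edgeR called 10.7% of all genes tested, the background for the counts that follow. Of 25 assembly and modification factors tested, it called 5 higher in 10 cells: Rcc1l, Mtg2, Mterf4, Tfb1m and Nsun4. Tfb1m, which methylates the small ribosomal RNA, was read in 1 of 8 libraries of 1 cell and 5 of 6 of 10 cells. Of 18 tested aminoacyl-tRNA synthetases and related enzymes 3 were higher, Wars2, Qrsl1 and Hars2, and of 15 translation factors 1 was higher, the release factor Mtrf1l. The difference between these lists and the members was not tested. All of these calls were lost with the share of genes detected as a covariate, where 0 genes were called. Their detection was at 37.5%, 38.8% and 47.5% of gene and library pairs in 1 cell for assembly factors, synthetases and translation factors, against 66.03% for the members.

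The members together took about the same share of a library's counts in each group, and this sum was not tested. It was 0.936% ± 0.410 (SD, n = 8) in 1 cell, 1.11% ± 0.0768 (SD, n = 6) in 3 cells and 1.08% ± 0.0809 (SD, n = 6) in 10 cells. Replicate 1 of the 1-cell libraries held 0.0931%, and without it the mean was 1.06% ± 0.246 (SD, n = 7). The share was 1.11% ± 0.239 (SD, n = 46) in C10 single cells and 1.02% ± 0.337 (SD, n = 48) in SVEC cells, a difference smaller than the spread between cells. The cytosolic ribosomal protein genes took 6.52% ± 1.67 in C10 and 3.84% ± 1.24 in SVEC. Because shares sum to a fixed total, fewer of these messages and more of the others cannot be told apart.

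Large-subunit genes took 0.735% ± 0.153 (SD, n = 46) of counts in C10 single cells and small-subunit genes 0.360% ± 0.0962. In SVEC the shares were 0.687% ± 0.243 and 0.314% ± 0.131 (SD, n = 48). The ratio of large to small was narrow in 10 cells, at 1.77 ± 0.120 (SD, n = 6), and ran from 0.906 to 2.19 over 7 libraries of 1 cell, as replicate 1 had no small-subunit read. Across cells with at least 100000 counts, the large-subunit and small-subunit shares correlated with Pearson's r of 0.799 over 45 C10 cells and 0.656 over 42 SVEC cells (Spearman's rho 0.735 and 0.641). The members' share correlated with that of nuclear-encoded oxidative phosphorylation genes at 0.764 in C10 and 0.765 in SVEC (rho 0.638 and 0.742). It also correlated with that of cytosolic ribosomal protein genes, at 0.812 in C10 and 0.697 in SVEC (rho 0.744 and 0.640), so the correlation was not particular to mitochondrial genes. With the share of the mitochondrially encoded protein genes, Pearson's r was 0.488 and Spearman's rho 0.538 in SVEC. In C10 the values were -0.449 and -0.0607, and 1 C10 cell lay far from the rest, with 16.8% of its counts on mitochondrially encoded protein genes and 0.339% on the members. That cell also had the lowest C10 shares of cytosolic ribosomal protein genes (1.97%) and oxidative phosphorylation genes (1.79%). Its part in the C10 values of Pearson's r above was not tested. These are descriptions: shares of one library add up to a fixed total, and cells with few detected genes have extreme shares.

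**Figure D5:**
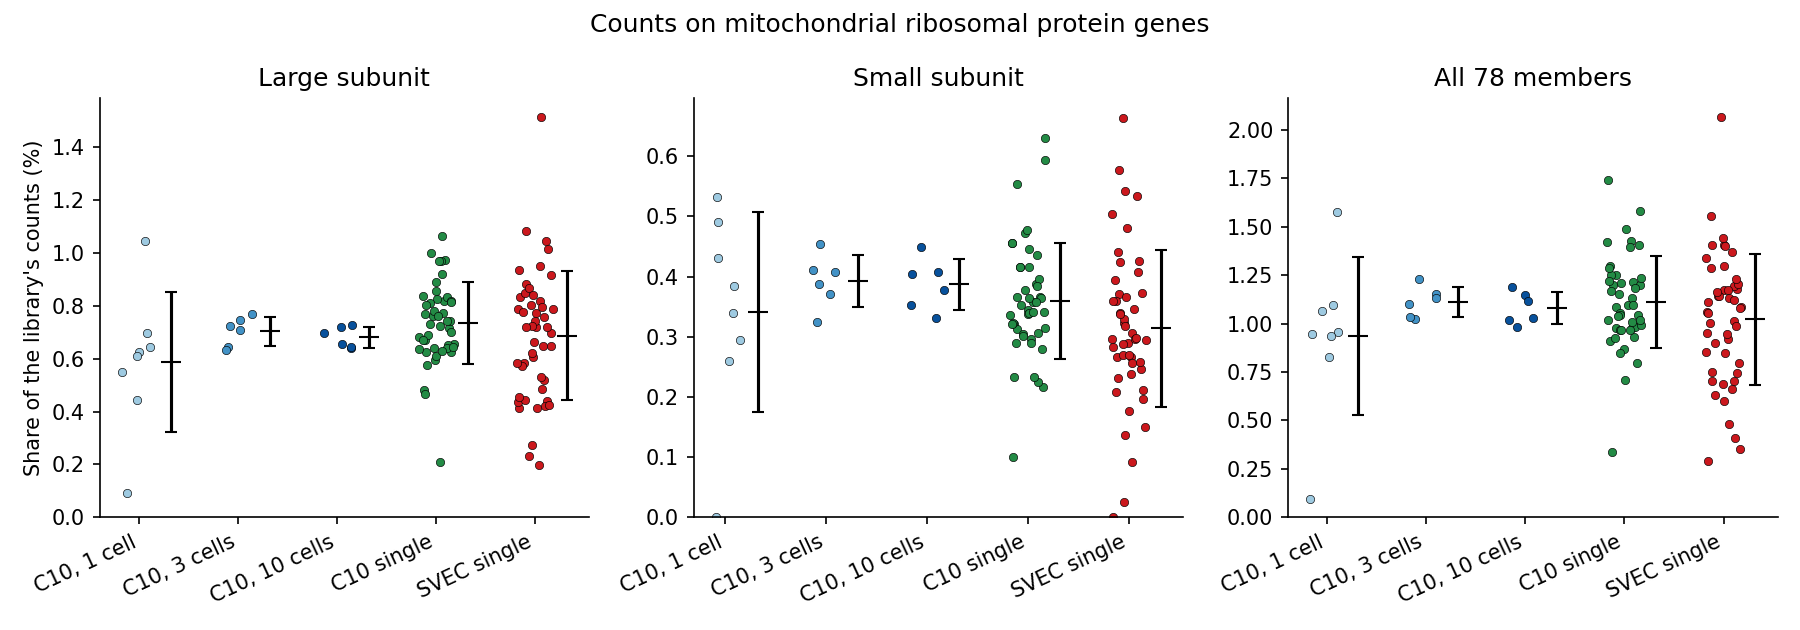
Percent of each library's counts on large-subunit members, small-subunit members and all 78 members. Each point is a library, and the bar gives mean ± SD. Libraries of 3 and 10 cells lie close together, at 1.11% and 1.08% for all members, and single cells of both lines scatter around similar means.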

How the data were processed

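The authors deposited whole-number read counts per gene, 1 file per library. FastQC, STAR and HTSeq are named, without versions, in the submitters' processing notes; genome build, annotation and strand setting are not given in the sources used here. Per the labels' protocols, SMART-Seq v4 Plus cDNA was sequenced as single reads of 150 bases. PCR copies cannot be separated from molecules, so intervals cover counting error only. The members and lists were chosen with earlier results of these data known.

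Genes were tested by edgeR 4.0.16 (R 4.3.3; TMM factors, quasi-likelihood test, Benjamini-Hochberg adjusted p under 0.05 over all genes tested). The input series was fitted over its 3 groups and the single cells over 2, without covariates. A gene was tested if it had a read in 50% of any input group's libraries, or 25% for single cells. Alternatives were DESeq2 1.42.0, limma 3.58.1 on log2(CPM + 1) or log2(CPM + 10), other scalings and filters, thinning and left-out libraries. Detection was tested by Fisher exact tests on thinned counts (scipy 1.17.1). Coding lengths and exon overlaps came from GENCODE on GRCm38, promoters from RefSeq. The tests were tested on simulated data. The closest libraries differed beyond sampling noise. Genes named were called members (C10 against SVEC: up to 10 each way, detected in at least 50% of the higher group), members called by detection, the 5 most and least detected, the 5 largest detection gains (ties by symbol), the 3 highest and lowest per length, the untested member and 14 chosen by role. Some list results are not reported here.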

Additional observations from a re-analysis of the deposited data

Results flagged for a closer look

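In the input series, 36 sets of values within a group (counts of members detected, shares of counts, and levels of 6 members) were examined for a library far from the others by Dixon's test at its 95% critical value. Of these, 9 had such a library. Chance flags about 1 in 20, but most of the 6 members were picked for zeros in 1 cell, and a lone value above 0 among zeros passes by construction (Mrps9 and Mrps22 in 1 cell), so the number is not to be read against chance. In the 1-cell libraries, replicate 1 detected 2 members while the others detected 41 to 75. Mrps9 had 0.359 CPM in replicate 9 and Mrps22 84.0 CPM in replicate 2, with 0 in all others. Mrpl1 had 212.8 CPM in replicate 6, with at most 8.03 in the others, and Mrpl44 had 50.8 CPM in replicate 10, with at most 19.7. Mrpl45 had 1311 CPM in replicate 5, with 4.64 to 234.5 in the others. In 3 cells, the ratio of large-subunit to small-subunit counts was 2.36 in replicate 5, with 1.63 to 1.76 in the others. In 10 cells, replicate 10 detected 75 members while the others detected 77, and Mrps22 had 95.4 CPM in replicate 1, with 18.3 to 40.7 in the others.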

How the results depend on the processing

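Members called in C10 against SVEC numbered 10 (9 higher, 1 lower). They numbered 6 with library totals (3 higher, 3 lower), 21 with DESeq2, 39 and 32 with limma at pseudocounts of 1 and 10, 4 with a filter at 90% of libraries, 2 with the detection covariate, and 6 among members whose exons overlap no other gene named in the files, a restriction chosen after seeing the data. Of all genes tested, 18.9% were called in the main test, 17.1% with library totals, 18.2% with DESeq2 and 15% with the detection covariate. limma called 34.6% at a pseudocount of 1, and 2121 genes higher and 395 lower of 9303 at 10. The filter at 90% called 361 genes higher and 128 lower of 1832, with 46 members tested. The 10 called members kept their direction in each alternative that tested them. With the replicate number as a replicate block 23 members were called, of which 9 were among the 10. Over all genes, 2809 were called higher and 299 lower of 9303 with that block. Few same-numbered single-cell libraries were alike: 1 of 46 pairs correlated above 0.1, and 2 correlated best with their own number. By detection 10 members were called, 24 without thinning, 17 at 50000 counts, 8 at 200000 counts and 9 at 5 or more reads (8 higher, 1 lower). All genes called more and less often in C10 were 1054 and 190 of 15357, and 3179 and 204 of 17923 without thinning. They were 1090 and 171 of 14789 at 50000 counts and 920 and 211 of 15926 at 200000 counts. At 5 or more reads they were 560 and 171 of 12334. In 10 cells against 1 cell, 1 member was called, 9 and 3 with limma at pseudocounts of 1 and 10, and 0 with the detection covariate or the replicate block. Of all 13645 genes, 1456 were called in the main test, 1418 and 384 by limma, and 0 with the covariate or the block. In 3 cells against 1 cell, 1 member was called, and 0 with the covariate or the replicate block, when 866 of 13645 genes and 0 genes were called. None of the 6 same-numbered pairs of the input series correlated above 0.1 in any comparison, and at most 2 of 6 correlated best with their own number. Replicate 1 nevertheless had the lowest total of each input group. It also had the highest share of counts on genes of the mitochondrial genome, at 64.6%, 16.7% and 17.8% for 1, 3 and 10 cells. Whether libraries of the same number were handled together was not tested. Leaving out 1 library at a time gave 1 to 2 members in 10 cells against 1 cell and 1 to 2 in 3 cells against 1 cell. By detection it gave 0 to 1 in 10 cells against 1 cell. Mrps9 passed there without 1-cell replicate 10, when 200 of 14733 genes were called. Members detected in 10 cells went from 76.7 to 75.5 on thinning to 400000 counts. Without mitochondrially encoded genes in the total, the members' share went from 1.11% to 1.24% in 3 cells and from 1.08% to 1.20% in 10 cells. The causes of these changes were not tested. Depth limits SVEC most, where 6 of 48 libraries had fewer than 100000 counts.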
